A study of Xenopus laevis with 46 samples.

Results

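Among 49233 gene names measured in Xenopus laevis blastulae, 10 were chosen by name as RNAs that the oocyte makes and the egg stores: mos.L, cpeb1.L, cpeb1.S, btg4.L, btg4.S, wee2.L, gdf9.L, gdf9.S, npm2.L and zar1.S. All 10 were among the 19896 genes tested, which had a normalized read count of at least 10 in at least 3 libraries. The libraries hold RNA captured by 5-ethynyl uridine (EU), a uridine analog that cells build into new RNA and that can be coupled to biotin. Wild-type embryos were injected with EU at the 1-cell stage (10 nl of a 50 mM solution, near 0.5 mM in the embryo) and kept at 22 °C. Vegetal pole (VP) and animal pole (AP) explants were taken at each hour from 5 to 9 hours post fertilisation (hpf). Experiment 1 has 3 clutches and 30 libraries, 3 per region and time. Experiment 2 has 1 further clutch at 6 to 9 hpf and 16 libraries, 2 technical replicates per region and time. All groups share the genotype and the label, and uninjected embryos were not analysed here. At these stages the capture should hold transcripts made by the embryo, so the comparisons ask how much RNA of these oocyte genes it still held, whether that amount changed with time and whether it differed between the regions.

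A fertilised frog egg runs its early cell cycles on RNA and protein laid down during oogenesis. Most of its own genes are silent until the midblastula transition, when zygotic transcription starts and many stored RNAs are degraded. The genes here cover several steps of that programme. The kinase Mos keeps the egg arrested in meiosis, Cpeb1 controls when stored RNAs receive a poly(A) tail, Wee2 (Wee1A) is the maternal kinase that restrains Cdk1, and nucleoplasmin (Npm2) stores histones and unpacks sperm chromatin. Btg4, known in mouse, recruits the deadenylase complex to maternal RNA. In mouse, Gdf9 is an oocyte growth factor and Zar1 binds RNA in the oocyte.

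The deposited unit is a read count normalized between libraries and rounded, called the level in what follows. Library totals ran from 1783721 to 3273514. Genes above 0 numbered 4137 to 18199 per library in experiment 1, against 4364 to 21140 per library in experiment 2. A level of 0 can be a missed gene, since libraries with few genes above 0 often, but not always, had fewer of the 10 RNAs above 0. VP at 8 hpf replicate 2 had 4137 genes above 0 and only 4 of the 10 RNAs. In experiment 2 the VP libraries at 7 hpf had 7306 and 4364 genes and 6 and 4 of the 10 RNAs. AP at 7 hpf replicate 2 had 7910 genes and 6 of the 10. Against this order, VP at 5 hpf replicate 3 had 7707 genes and 9 of the 10. The AP libraries of experiment 2 at 9 hpf had 15051 and 15443 genes and 8 of the 10 each. The other libraries had 7 to 10. The RNAs known to mark the vegetal side were in place: the summed level of 18 such genes was 6438 to 9684 in VP and 125 to 366 in AP at 5 hpf. The 12 animal markers summed to 1599 to 3567 in VP and 1806 to 4127 in AP at 5 hpf, ranges that overlap, and to 5778 to 6728 in VP and 6977 to 27412 in AP at 9 hpf, which do not. The 15 markers of zygotic transcription summed to 22820 to 36151 in VP and 9682 to 48202 in AP at 9 hpf, against 121 to 416 in VP and 267 to 341 in AP at 5 hpf.

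RNAs of the 10 oocyte genes were still in the capture at 9 hpf, at lower levels for most. None of the 10 differed with time or region at an adjusted p under 0.05. In VP the 10 RNAs together summed to 2616, 2046 and 2707 at 9 hpf, against 4581, 3028 and 4827 at 5 hpf. In AP they summed to 2400, 1258 and 2350 at 9 hpf, against 4208, 3255 and 4675 at 5 hpf. Within each region all 9 hpf libraries lay below all 5 hpf libraries. These sums weigh most the RNAs with high levels, and sums of other genes were not compared. In AP at 5 hpf replicate 3, mos.L had 1612 and wee2.L 1517 of the 4675. Of the library total, the 10 RNAs made up 0.0941% to 0.114% in VP at 9 hpf against 0.122% to 0.212% at 5 hpf, and 0.0411% to 0.110% in AP at 9 hpf against 0.139% to 0.209% at 5 hpf. The number of genes above 0 did not separate these groups: it was 9245 to 14824 against 7707 to 17708 in VP and 12957 to 17494 against 8488 to 15727 in AP. Its part in the lower sums was not tested. Whether the reads of the 10 genes came from stored or newly made RNA was not tested. Fewer molecules of these RNAs and a larger share of other RNA in the capture cannot be told apart from these relative levels. Nor can fewer cells of a kind and less RNA per cell in a dissected region.

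**Figure D1:**
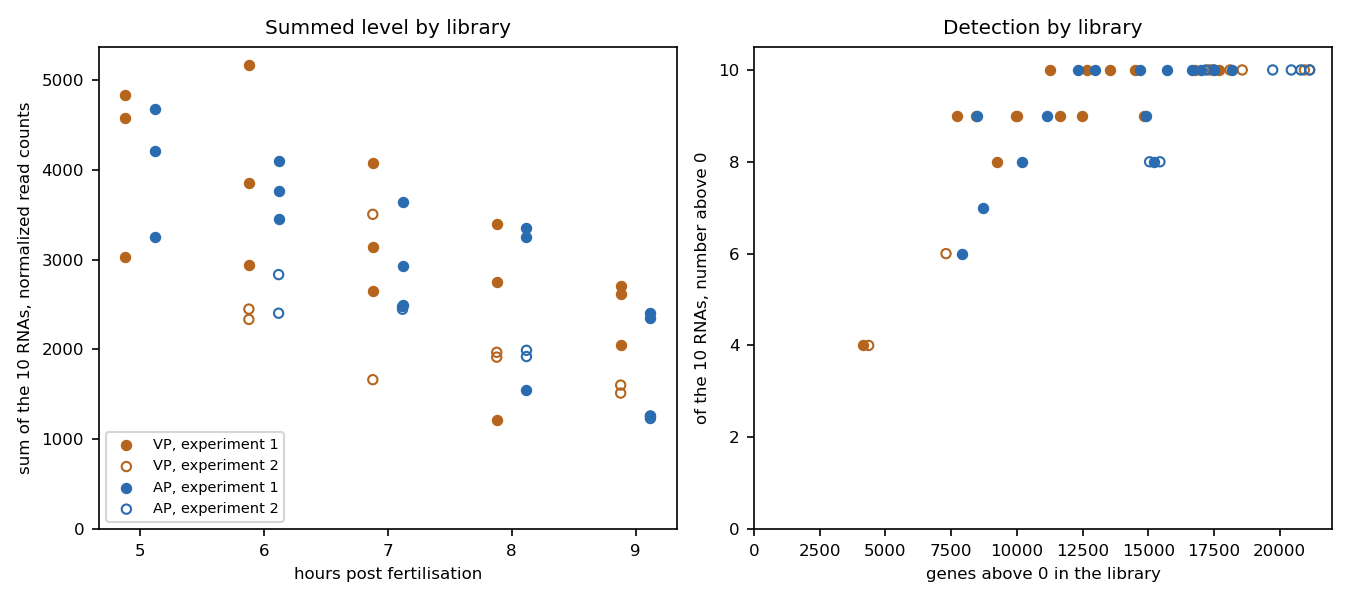
Left, the summed level of the 10 RNAs in each library (y axis, normalized read counts) by time (x axis, hours post fertilisation), with VP in brown and AP in blue, experiment 1 filled and experiment 2 open. Right, how many of the 10 RNAs were above 0 (y axis) by the number of genes above 0 in the library (x axis). The sums at 9 hpf, from 1231 to 2707, lie below those at 5 hpf, from 3028 to 4827, and the libraries with the fewest genes show 4 of the 10 RNAs.

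Change with time was fitted as a straight line of log2(level + 1) on hours in the 30 libraries of experiment 1 with limma, in a model with a slope for each region. In limma the spread of each gene is drawn toward that of genes at a like level. The SE, intervals and p-values given here thus do not rest on each gene's own spread alone. With both regions averaged, 8 of the 10 slopes were below 0, and their median was -0.27 per hour on the log2 scale. Over all 19896 genes 48.9% of slopes were below 0, with a median of 0.01. None of the 10 was called at an adjusted p under 0.05, where 5.58% of all genes were, nearly all of them upwards. At an unadjusted p under 0.05, 3 of the 10 had a slope below 0 (btg4.L, btg4.S and npm2.L), against 3.15% of all genes. In VP alone 8 slopes were below 0 with a median of -0.21, against 55.5% of all genes with a median of -0.07. In AP alone 8 were below 0 with a median of -0.23, against 40.4% of all genes with a median of 0.10. No gene of the 10 was called in VP (2.0% of all genes called) or in AP (3.51%). At an unadjusted p under 0.05, 1 had a slope below 0 in VP (npm2.L, 3.88% of all genes). In AP there were 0 in either direction, against 11.2% of all genes. Leaving out VP at 8 hpf replicate 2, AP at 7 hpf replicate 2 or VP at 5 hpf replicate 3, the libraries with the fewest genes, left the count of called RNAs at 0. A count already at 0 does not show how far the slopes depend on these libraries. Without VP at 8 hpf replicate 2 the slopes were -0.13 for mos.L, -0.48 for btg4.L, -0.29 for btg4.S and -0.66 for npm2.L. With it they were -0.28, -0.60, -0.43 and -0.74.

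**Figure D2:**
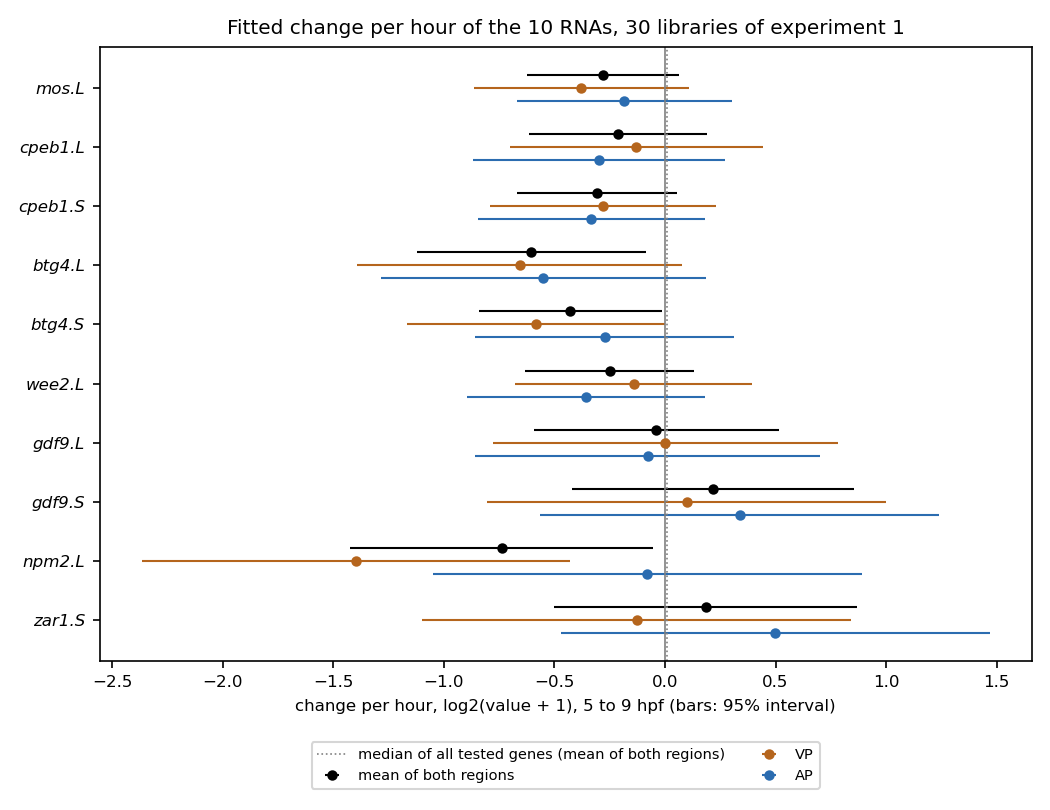
Fitted change per hour of log2(level + 1) from 5 to 9 hpf (x axis) for each of the 10 RNAs (y axis) in experiment 1, with the mean of both regions in black, VP in brown and AP in blue. Points are estimates, bars are 95% intervals from limma and the dotted line is the median slope of all tested genes. Most points lie left of 0, from -0.74 for npm2.L to 0.22 for gdf9.S in the mean of both regions, and most bars cross 0.

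In the mean of both regions btg4.L had the lowest adjusted p of the 10 RNAs. In VP btg4.L had 265, 222 and 776 (5 hpf), 122, 926 and 244 (6 hpf), 198, 295 and 559 (7 hpf), 392, 0 and 238 (8 hpf) and 37, 68 and 325 (9 hpf). In AP it had 511, 172 and 182 (5 hpf), 420, 168 and 107 (6 hpf), 473, 0 and 473 (7 hpf), 258, 36 and 407 (8 hpf) and 147, 24 and 19 (9 hpf). The AP values at 9 hpf lay below all AP values at 5 hpf, while in VP the highest value at 9 hpf lay above the lowest at 5 hpf. The slope of btg4.L was -0.60 ± 0.26 per hour on the log2 scale (SE, 30 libraries, limma adjusted p = 0.214), with a 95% interval from -1.12 to -0.09.

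Its homeolog btg4.S showed the reverse arrangement between regions. In VP btg4.S had 794, 342 and 343 (5 hpf), 664, 415 and 499 (6 hpf), 377, 578 and 320 (7 hpf), 344, 0 and 250 (8 hpf) and 232, 191 and 197 (9 hpf), all 3 of these below the lowest at 5 hpf. In AP it had 553, 474 and 211 (5 hpf), 898, 430 and 439 (6 hpf), 576, 804 and 231 (7 hpf), 674, 202 and 276 (8 hpf) and 301, 157 and 143 (9 hpf), where the groups overlapped. Its slope was -0.43 ± 0.21 per hour (SE, limma adjusted p = 0.31), with a 95% interval from -0.84 to -0.02. With the log2 number of genes above 0 as a covariate both copies passed, with slopes of -0.78 for btg4.L (limma adjusted p = 0.0257) and -0.55 for btg4.S (limma adjusted p = 0.0458). With that covariate 177 of all genes were called lower (0.89%), against 31 without it. Both had a level of 0 in VP at 8 hpf replicate 2, and without that library the slopes were -0.48 (limma adjusted p = 0.167) and -0.29 (limma adjusted p = 0.201).

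The kinase gene wee2.L was above 0 in all 46 libraries. In VP wee2.L had 229, 466 and 834 (5 hpf), 260, 1109 and 692 (6 hpf), 318, 479 and 373 (7 hpf), 350, 225 and 480 (8 hpf) and 413, 293 and 383 (9 hpf). In AP it had 466, 561 and 1517 (5 hpf), 346, 656 and 292 (6 hpf), 485, 308 and 159 (7 hpf), 334, 156 and 396 (8 hpf) and 299, 191 and 294 (9 hpf). The 9 hpf values lay below all 5 hpf values in AP and within their range in VP. The slope was -0.25 ± 0.19 per hour (SE, limma adjusted p = 0.65), with a 95% interval from -0.63 to 0.13. The other copy, wee2.S, is not among the 10 and had a slope of -0.52 ± 0.23 (SE, limma adjusted p = 0.217). When the levels of the copies were added before the fit, wee2 fell by 0.31 ± 0.10 per hour on the log2 scale (SE, limma adjusted p = 0.0444), and it was the only one of the 7 genes so summed to pass. Of all 15060 genes in that fit 38 were called lower (0.252%). The limma SE also differed in that fit. For mos, with no other copy to add, the slope stayed at -0.28 while its SE was 0.23 in place of 0.18. How much of the wee2 call came from adding the copies was not tested. The summed wee2 level was 755, 728 and 383 in VP at 9 hpf against 953, 856 and 976 at 5 hpf, and 687, 297 and 395 in AP at 9 hpf against 1044, 1602 and 1746 at 5 hpf. The times did not overlap in either region, and the share of all summed genes without overlap was not computed.

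The mos.L RNA, whose protein is destroyed soon after fertilisation, was above 0 in 45 of 46 libraries. In VP mos.L had 1002, 789 and 779 (5 hpf), 334, 1075 and 223 (6 hpf), 754, 716 and 454 (7 hpf), 705, 0 and 591 (8 hpf) and 553, 414 and 723 (9 hpf). In AP it had 915, 1193 and 1612 (5 hpf), 610, 817 and 511 (6 hpf), 540, 780 and 524 (7 hpf), 722, 445 and 708 (8 hpf) and 506, 541 and 996 (9 hpf). The 9 hpf values lay below the 5 hpf values in VP, and in AP the highest at 9 hpf lay above the lowest at 5 hpf. All AP values from 6 to 8 hpf were below the lowest AP value at 5 hpf. The share of all genes with that pattern was not computed. The slope was -0.28 ± 0.18 per hour (SE, limma adjusted p = 0.51), with a 95% interval from -0.63 to 0.06. It was -0.13 without VP at 8 hpf replicate 2, where mos.L was listed at 0.

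The cpeb1 copies were detected as widely. Levels of cpeb1.S ran from 24 to 1125 over the 46 libraries, with no 0, and those of cpeb1.L from 0 to 970, with a 0 only in the VP libraries of experiment 2 at 7 hpf. At 9 hpf cpeb1.S had 500, 154 and 485 in VP against 753, 463 and 1037 at 5 hpf, and 229, 242 and 371 in AP against 720, 279 and 546 at 5 hpf. At 9 hpf cpeb1.L had 409, 89 and 373 in VP against 275, 300 and 647 at 5 hpf, and 432, 29 and 80 in AP against 460, 423 and 72 at 5 hpf. The times overlapped in both regions for both copies. The slopes were -0.31 ± 0.19 for cpeb1.S (SE, limma adjusted p = 0.486) and -0.21 ± 0.21 for cpeb1.L (SE, limma adjusted p = 0.756).

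Nucleoplasmin RNA (npm2.L) had the lowest slope of the 10, and was detected in the fewest libraries but for zar1.S (37 of 46). In VP npm2.L had 368, 169 and 159 (5 hpf), 291, 230 and 89 (6 hpf), 90, 42 and 119 (7 hpf), 89, 0 and 55 (8 hpf) and 0, 170 and 0 (9 hpf). In AP it had 269, 0 and 479 (5 hpf), 121, 200 and 0 (6 hpf), 196, 0 and 168 (7 hpf), 206, 177 and 49 (8 hpf) and 104, 0 and 61 (9 hpf). Libraries of experiment 1 at 0 stood at 5, 6, 7 and 9 hpf in AP and at 8 and 9 hpf in VP. In experiment 2 both VP libraries at 7 hpf were at 0. The slope was -1.40 ± 0.49 per hour in VP (SE, limma adjusted p = 0.14) and -0.08 ± 0.49 in AP (SE, limma adjusted p = 0.996). The difference between the slopes, -1.32 ± 0.70 (SE, limma adjusted p = 0.942), was not called. Without replicate 2 of every group the VP slope was -1.70 and passed (limma adjusted p = 0.0377), as did 92 of all genes with a slope below 0 (0.462%). The other copy, npm2.S, had slopes of -0.39 ± 0.52 in VP and 0.07 ± 0.52 in AP (SE), and neither was called. With the copies summed the npm2 slope was -1.22 ± 0.40 in VP (SE, limma adjusted p = 0.0894). In AP it was 0.20 ± 0.40 (SE, limma adjusted p = 0.939). In experiment 2 npm2.L had 79 and 139 in VP at 9 hpf against 87 and 78 at 6 hpf. In AP it had 72 and 69 at 9 hpf against 198 and 193 at 6 hpf.

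The growth factor and Zar1 RNAs showed no common direction. At 9 hpf gdf9.L had 261, 500 and 140 in VP against 268, 166 and 214 at 5 hpf, and 119, 1 and 126 in AP against 207, 0 and 55 at 5 hpf. At 9 hpf gdf9.S had 199, 167 and 81 in VP against 580, 94 and 38 at 5 hpf, and 226, 73 and 79 in AP against 98, 153 and 1 at 5 hpf. The slopes were -0.04 ± 0.28 for gdf9.L and 0.22 ± 0.33 for gdf9.S (SE, limma adjusted p = 0.98 and 0.874). The zar1.S RNA was the sparsest, listed at 0 in 18 of 46 libraries and never above 181. At 9 hpf it was listed at 12, 0 and 0 in VP libraries and 37, 0 and 181 in AP libraries, against 47, 17 and 0 in VP libraries and 9, 0 and 0 in AP libraries at 5 hpf, with a slope of 0.19 ± 0.35 (SE, limma adjusted p = 0.905). Its homeolog zar1.L was listed at 0 in 32 of 46 libraries, reached 24 at most and was not tested.

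**Figure D3:**
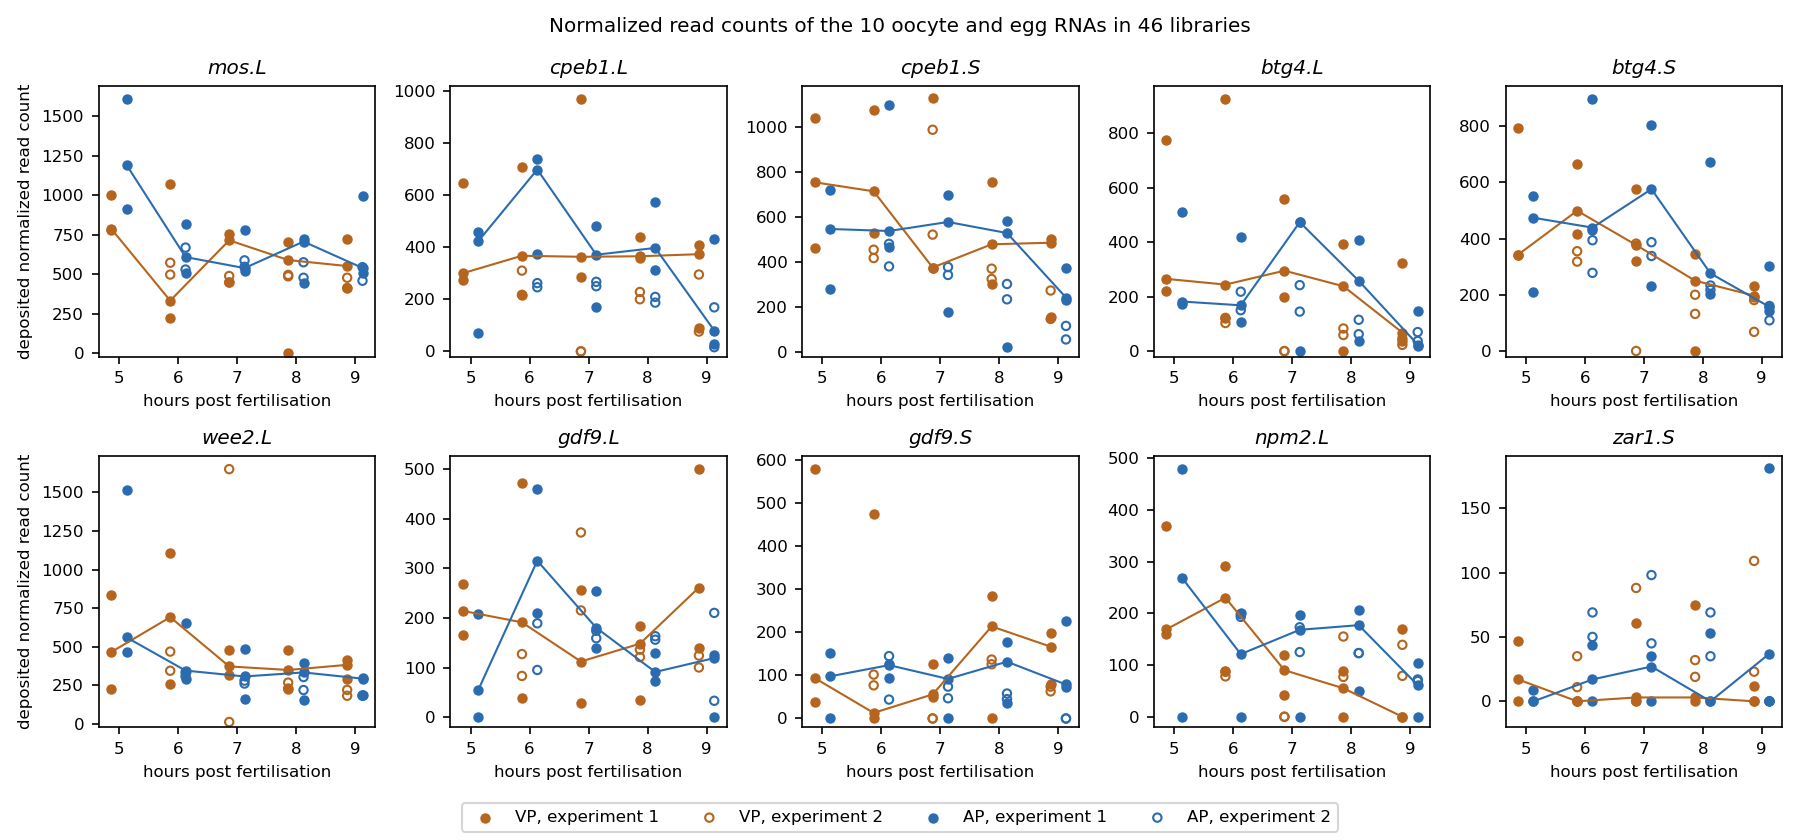
Level of each of the 10 RNAs (y axis, deposited normalized read count, own scale per panel) by time (x axis, hours post fertilisation) in all 46 libraries, with VP in brown and AP in blue, experiment 1 filled and experiment 2 open. Lines join the medians of experiment 1. The medians of btg4.L in AP run lowest at 9 hpf, those of mos.L in AP are highest at 5 hpf, and a mos.L and a btg4.S library at 0 stand at 8 hpf in VP.

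Compared directly, 9 against 5 hpf gave no call among the 10 in VP, where 1.25% of all genes were called, or in AP, where 1.72% were. In VP 8 of the 10 log2 changes were below 0 (54.2% of all genes), with a median of -0.87 against -0.24 over all genes. There 1 had an unadjusted p under 0.05 with a change below 0 (npm2.L, 3.52% of all genes). In AP 7 were below 0 (38.5% of all genes), with a median of -0.95 against 0.41 over all genes. There 0 had an unadjusted p under 0.05 (10.3% of all genes). All VP libraries at 9 hpf lay below all at 5 hpf for mos.L and btg4.S, 2 of the 10, against 4.77% of all genes. All AP libraries at 9 hpf did so for btg4.L and wee2.L, also 2 of the 10, against 4.23%. None of the 10 was wholly higher at 9 hpf in either region. The slopes of VP and AP were not called different for any of the 10 by limma (0.0% of all genes called). At an unadjusted p under 0.05 there were 0 of the 10, against 5.34% of all genes.

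In experiment 2, where values are technical replicates of 1 clutch and no test was made, the mean at 9 hpf was below that at 6 hpf for 7 of the 10 RNAs in VP (45.3% of all genes) and 10 of the 10 in AP (54.0% of all genes). In AP 8 of the 10 had both values at 9 hpf below both at 6 hpf, all but mos.L and gdf9.L, against 30.3% of all genes. In VP it was 6 of the 10 (mos.L, cpeb1.S, btg4.L, btg4.S, wee2.L and gdf9.S), against 19.7% of all genes. None was wholly higher in either region. In AP the number of genes above 0 was also lower without overlap, at 15051 and 15443 at 9 hpf against 21140 and 17187 at 6 hpf. In VP it was 18109 and 17310 at 9 hpf against 18575 and 17434 at 6 hpf, which overlap. Its part in the lower levels was not tested.

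The btg4.L level was 46 and 23 in VP at 9 hpf against 122 and 103 at 6 hpf, and 37 and 70 in AP at 9 hpf against 218 and 150 at 6 hpf. The cpeb1.S level was 273 and 147 in VP at 9 hpf against 454 and 417 at 6 hpf, and 116 and 56 in AP at 9 hpf against 480 and 380 at 6 hpf. The mean at 9 hpf was thus 0.307 of that at 6 hpf in VP and 0.291 in AP for btg4.L, and 0.482 in VP and 0.2 in AP for cpeb1.S. The mos.L level was 479 and 414 in VP at 9 hpf against 574 and 499 at 6 hpf and 460 and 546 in AP at 9 hpf against 670 and 531 at 6 hpf, so that the mean at 9 hpf was 0.832 of that at 6 hpf in VP and 0.838 in AP. The gdf9.S and zar1.S RNAs were listed at 0 in both AP libraries at 9 hpf and were above 0 in both VP libraries. At 9 hpf 4 of the 10 (cpeb1.S, gdf9.S, npm2.L and zar1.S) had both VP values above both AP values, against 19.0% of all genes, and none had both below. At 6 hpf 3 of the 10 (btg4.L, npm2.L and zar1.S) had both VP values below both AP values, against 21.4% of all genes, and 1 (wee2.L) had both above, against 12.5%. At 8 hpf 3 (btg4.S, gdf9.L and zar1.S) had both VP values below, against 23.5%, and 2 (cpeb1.S and gdf9.S) had both above, against 15%. In this 1 clutch the npm2.L and zar1.S RNAs thus stood on opposite sides at 9 and 6 hpf, which was not tested. The zar1.S levels were low, at 35 and 11 in VP against 69 and 50 in AP at 6 hpf. Its technical replicates differed by up to 6.48 on the log2 scale. In experiment 1 at 9 hpf the difference VP minus AP was below 0 for npm2.L (-1.75) and zar1.S (-3.02), and neither was called.

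Technical replicates differed by a median of 0.206 on the log2 scale for mos.L, 0.351 for cpeb1.S and 1.03 for zar1.S, and by up to 8.58 for btg4.S, in VP at 7 hpf, where it had 382 and 0. These differences come from 8 pairs of libraries per gene. Within the groups of experiment 1 the pooled SD of log2(level + 1) was 0.704 for wee2.L, 1.04 for cpeb1.L, 1.08 for cpeb1.S and 1.78 for mos.L, against a median of 2.48 over all tested genes. It was 1.62 for btg4.S and 1.92 for gdf9.L. It was above that median for the other 4, with 2.51 for btg4.L, 2.68 for gdf9.S, 2.80 for zar1.S and 3.29 for npm2.L. The limma SE of the slope in the mean of both regions lay closer together, at 0.19 for wee2.L and 0.35 for npm2.L. These SE are therefore no measure of how much each RNA varied.

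Between the regions the 10 RNAs were not called different, while most RNAs of the vegetal store were. VP was compared with AP over the 5 times together, and 0 of the 10 were called (0.709% of all genes). At an unadjusted p under 0.05 there were 0 of the 10, against 10.1% of all genes. The log2 differences ran from -0.86 for mos.L to 0.87 for gdf9.L with a median of 0.24, where the median of all genes was -0.47. The median of the 10 had no stable sign: over the 15 alternatives that keep the copies apart it ran from -0.11, without AP at 7 hpf replicate 2, to 0.51, and it was below 0 in 2 of them. With copies summed the median of the 7 genes was -0.37. At 5 hpf alone 0 of the 10 were called (0.0955% of all genes), and 8 differences were above 0 and 2 below (40.2% of all genes below). At 9 hpf alone 0 of the 10 were called as well (0.377%), and 7 were above 0 and 3 below (60.7% of all genes below). Neither had one of the 10 at an unadjusted p under 0.05, against 4.29% of all genes at 5 hpf and 7.19% at 9 hpf. Among 10 genes a count of 0 is near these shares. Over the 15 libraries of a region the median mos.L level was 705 in VP and 708 in AP, that of cpeb1.S was 500 in VP and 528 in AP, and that of wee2.L was 383 in VP and 334 in AP. Of 24 tested genes in the list of vegetally stored RNAs, 18 were higher in VP over the 5 times (median log2 difference 5.08, with 0.638% of all genes called higher). Its gene grip2.L, of the germ plasm, had 986 to 3264 in VP and 0 to 69 in AP (log2 difference 9.47 ± 0.89 (SE), limma adjusted p = 1.62e-18).

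The balance between the copies of a gene varied across groups. The L copy of wee2 made up 51.0% to 59.8% of the summed level of both copies in the 10 groups of experiment 1, and that of cpeb1 35.2% to 53.1%. For btg4 it was 24.0% to 51.5%. For gdf9 it was 39.4% to 74.1% and for npm2 42.8% to 79.3%. In the 8 groups of experiment 2 the share was 52.1% to 92.1% for wee2, 0.0% to 51.8% for cpeb1, 0.0% to 35.4% for btg4, 49.4% to 100% for gdf9 and 0.0% to 57.3% for npm2. The sources used here do not say how reads shared by near-identical copies were assigned, so single copies are less certain than their sums.

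Other RNAs with roles in the oocyte and egg were examined in lists drawn up from general knowledge, leaving out the 10. The lists were drawn up with earlier results of these data known. Over all tested genes, 48.9% of slopes in the mean of both regions were below 0. At an unadjusted p under 0.05, 3.15% had a slope below 0. At an adjusted p under 0.05, 31 of 19896 were called lower and 5.42% higher. Of the coat, chromatin and growth factor genes of the oocyte, 27 of 32 were tested and 18 had slopes below 0 in the mean of both regions (median -0.23). None was called lower by limma (4 at an unadjusted p under 0.05), and 1 was called higher: gdf3.S, for the TGF-beta ligand Derrière, which the embryo makes itself. It had 1756, 2147 and 2555 in VP at 9 hpf against 0, 10 and 0 at 5 hpf, and 65, 602 and 127 in AP at 9 hpf against 0 in each library at 5 hpf, a slope of 2.16 ± 0.38 per hour (SE, limma adjusted p = 2.44e-06). Of the meiosis and egg arrest kinases with their partners, 39 of 40 were tested, 29 slopes were below 0 (median -0.23), 0 were called lower by limma (9 at an unadjusted p under 0.05) and 1 higher. The gene called was wee1.L, a relative of wee2.L in the same kinase family. It had 578, 332 and 502 in VP at 9 hpf against 0, 44 and 0 at 5 hpf, and 22, 180 and 376 in AP at 9 hpf against 33, 15 and 0 at 5 hpf (1.38 ± 0.36 (SE), limma adjusted p = 0.00416).

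The factors that control translation in the maturing oocyte behaved likewise, with 44 of 46 tested. Of their slopes 33 were below 0 (median -0.18), against 48.9% over all genes. By limma 0 were called lower, with 3 at an unadjusted p under 0.05 (3.15% of all genes). Called higher was 1, caprin2.S (5.42% of all genes). At 9 hpf the caprin2.S level was 56, 59 and 0 in VP libraries, and 85, 189 and 264 in AP libraries, against 0 in every library at 5 hpf. Its limma adjusted p was 0.000593 in the mean of both regions, and its slope in AP was 1.62 ± 0.39 per hour (SE, limma adjusted p = 0.00272). The other copy, caprin2.L, had a slope of -0.03 ± 0.18 in the mean of both regions (SE, limma adjusted p = 0.977). Of this list dazl.L, a germ plasm RNA, and ddx6.L, for an RNA helicase of stored RNA particles, were higher in VP over the 5 times. The ddx6.L level was 535 to 1261 in VP and 12 to 410 in AP (log2 difference 2.29 ± 0.53 (SE), limma adjusted p = 0.00443), and that of dazl.L was 81 to 1397 in VP and 0 to 49 in AP (7.97 ± 1.05 (SE), limma adjusted p = 6.02e-10). The regions overlapped for neither gene, and the share of all genes without overlap was not computed. The other copy, ddx6.S, was not called between the regions (log2 difference 0.14 ± 0.43 (SE), limma adjusted p = 0.935).

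Of genes for deadenylation and decay of RNA, the machinery that btg4 belongs to, 63 of 63 were tested. Of their slopes 36 were below 0 (median -0.07), against 48.9% over all genes. None was called in the mean of both regions, where 5.58% of all genes were. At an unadjusted p under 0.05 in either direction there were 8, against 14.6% of all genes. The btg4 relative tob2.L was higher in VP over the 5 times, with a median of 914 in VP and 133 in AP and overlapping ranges (log2 difference 2.69 ± 0.58 (SE), limma adjusted p = 0.00115). The other copy, tob2.S, was not called (log2 difference 0.94 ± 1.07 (SE), limma adjusted p = 0.806). The family member tob1.S rose in AP by 1.72 ± 0.52 per hour (SE, limma adjusted p = 0.0315). It had 269, 228 and 252 in AP at 9 hpf against 28, 0 and 0 at 5 hpf, and 4, 3 and 1 in VP at 9 hpf against 101, 38 and 5 at 5 hpf. The difference between its slopes, VP minus AP, did not pass (-2.08 ± 0.74 (SE), limma adjusted p = 0.81). Of 54 tested genes in the list of earliest zygotic genes, 41 rose in the mean of both regions (median slope 2.03, with 5.42% of all genes called higher), which none of the 10 did. In that list 5 slopes were below 0: foxi2.L (-0.49), foxi2.S (-0.46), pou5f3.3.S (-0.29), id2.S (-0.24) and pou5f3.3.L (-0.10). None of these was called, and whether their RNA was stored in the egg or made by the embryo was not tested.

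**Figure D4:**
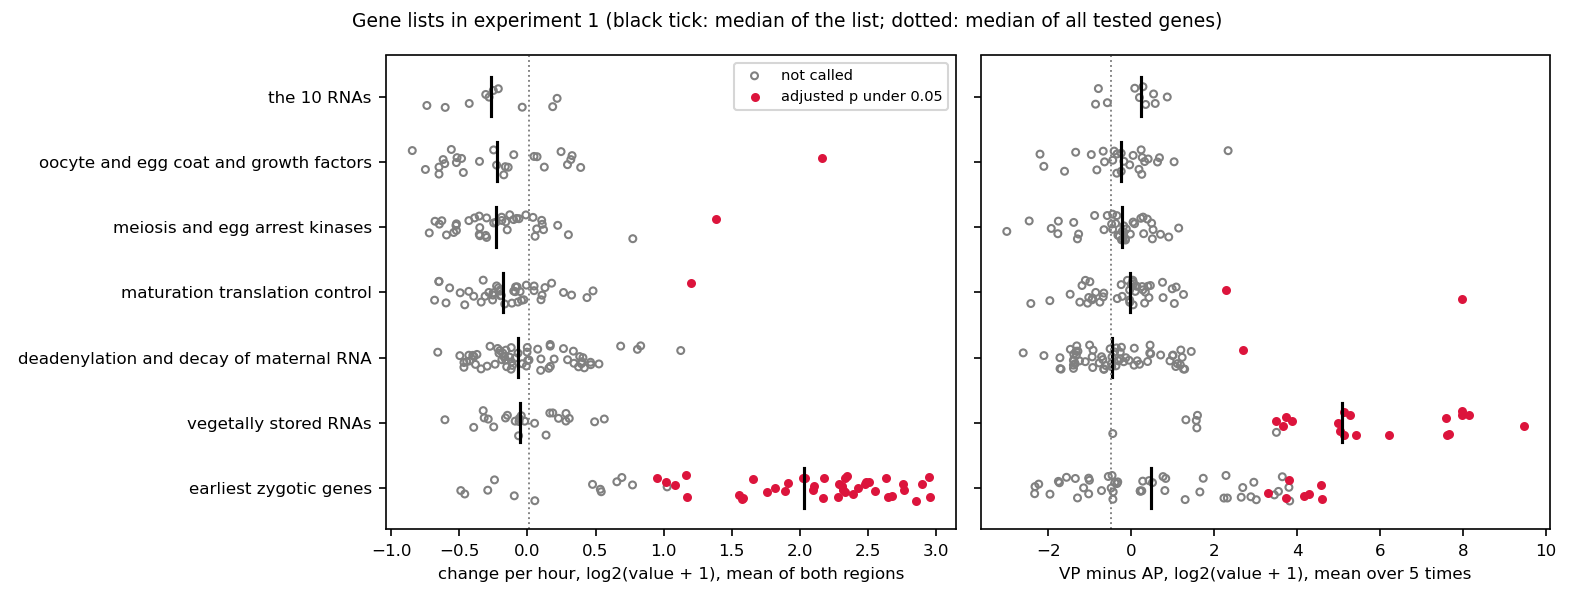
Each point is a gene of the named list (y axis). The x axis shows the fitted change per hour of log2(level + 1) in the mean of both regions (left) and the difference VP minus AP over 5 times (right), in experiment 1, with red for an adjusted p under 0.05. Black ticks are list medians, from -0.27 for the 10 RNAs to 2.03 for the earliest zygotic genes on the left, and the dotted line is the median of all tested genes. Vegetally stored RNAs stand at the right of the right panel, with a median of 5.08.

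The genes most like the 10 RNAs across the 30 libraries of experiment 1 were sought by Pearson's r between a gene's log2(level + 1) and the mean of the 10, among 9503 genes above 0 in at least 20 libraries. The 5 highest were ccp110.L (r = 0.814), zpax.L (0.8), ece1.S (0.79), smad4.2.L (0.781) and ptprf.L (0.777). These are descriptions with no test, over libraries that share their detection depth. All 5 were listed at 0 in VP at 8 hpf replicate 2, and without it r was 0.66 to 0.701. Of the 5, zpax.L encodes a protein of the egg coat and is in the oocyte list. Its slope of -0.48 ± 0.26 per hour (SE, limma adjusted p = 0.377) was not called either.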

How the data were processed

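Per the submitters' processing notes, reads were quantified with Salmon 0.12.0 and normalized with DESeq2, for which the sources used here name no version, genome build or annotation. The table the authors deposited has 50489 entries and 46 libraries, and its whole numbers are treated as a score, meaning read counts after normalization and rounding. Size factors recomputed by the median-ratio method (1108 genes) for the 30 libraries of experiment 1 lay between 0.989 and 1.18. Sequencing depth is therefore not known, and counting intervals were not computed. Entries sharing a name (1256) were summed. A gene was tested if 3 or more of the 30 libraries of experiment 1 had a score of 10 or more, as log2(score + 1) in limma 3.58.1 under R 4.3.3 (version 1.17.8 of data.table), with mean trend and robust settings. Two-sided p-values were adjusted over the 19896 genes, separately per contrast (Benjamini-Hochberg). Lines on time used 2 intercepts and 2 slopes, and other contrasts used 10 group means. Fold changes between low levels are shrunk on this scale, while a missed gene listed at 0 can give a large change. For npm2.L in VP, with 2 libraries listed at 0 at 9 hpf, the log2 change from 5 to 9 hpf was -5.28.

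The 10 genes, the lists and the tests were chosen with earlier results of these data known. Named genes were the 10, their other copies, up to 3 called genes per list, contrast and direction, and the 5 most alike. Of the genes so named in the lists of vegetal and zygotic RNAs, few are described. Symbols were matched to RefSeq gene names. The labels do not say that replicate numbers mark the same clutch in both regions, so p-values treat libraries as independent. The scripts were tested on simulated data. Figures used Python 3.11.15, pandas 2.3.3, numpy 2.4.6 and matplotlib 3.10.9. Alternatives varied the scaling, added constant, filter, samples, block, covariate and summing of copies.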

Additional observations from a re-analysis of the deposited data

How the results depend on the processing

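The count of the 10 RNAs called stayed at 0 for 9 comparisons under every alternative but 3. For the slope in both regions it was 1 with L and S copies summed (wee2) and 2 with the log2 gene number of each library as covariate (btg4.L and btg4.S), a fit in which 177 of all genes were called lower, against 31 without it. For the slope in VP it was 0 to 1 when replicates or single libraries were left out, the 1 being npm2.L without replicate 2. The cause was not tested. In the 15 alternatives that give single genes, the slopes of mos.L, both cpeb1 copies, both btg4 copies, wee2.L, gdf9.L and npm2.L in both regions stayed below 0. The median slope in both regions was -0.37 to -0.12 over 16 alternatives, 1 of which has the 7 summed genes in place of the 10.

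The count of all genes called moved more. With 10 in place of 1 added it was 572 for 9 against 5 hpf in AP, 474 in VP, 230 for VP against AP over all times, 38 at 5 hpf, 218 at 9 hpf and 9 for the difference of slopes. With 0.5 added it was 8 at 5 hpf. Without a filter it was 555 for 9 against 5 hpf in AP, 5 for VP against AP at 5 hpf, 233 at 9 hpf and 3 for the difference of slopes, and with 6 libraries asked 28 at 9 hpf. With only the groups compared it was 232 for the slope in VP, 149 for 9 against 5 hpf in AP and 32 at 5 hpf. The gene-number covariate gave 392 for 9 against 5 hpf in VP, 29 at 5 hpf and 141 at 9 hpf. Adding experiment 2 as 1 more clutch gave 682 for the slope in VP, 11 for the difference of slopes, 428 for 9 against 5 hpf in VP, 236 for VP against AP over all times and 152 at 9 hpf.

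Leaving out a replicate, VP at 8 hpf replicate 2, or, chosen after seeing the data, AP at 7 hpf replicate 2 or VP at 5 hpf replicate 3 gave 487 to 1309 for the slope in both regions, 123 to 763 in AP, 29 to 532 in VP and 0 to 2 for their difference. It gave 10 to 398 for 9 against 5 hpf in AP and 0 to 296 in VP, and 68 to 197 for VP against AP over all times, 5 to 34 at 5 hpf and 1 to 76 at 9 hpf. With the replicate block the count of the 10 RNAs stayed at 0 in all 9 comparisons, and that of all genes was 1201 against 1110 for the slope in both regions. Residual correlations of VP and AP libraries with equal numbers were -0.02 to 0.10 (15 pairs, median 0.03). With unequal numbers they were -0.11 to 0.08 (30 pairs, median -0.01). Equal numbers were thus slightly more alike in the median, with overlapping ranges. The libraries were not paired because the labels do not say that equal numbers are the same clutch. Unknown depth limits every level near 0.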
